A study of Homo sapiens with 4 samples.

Results

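The mitochondrial ribosome and the respiratory chain are built largely from proteins encoded in the nucleus, and the mRNAs of these proteins were examined here for binding by YTHDF1. The genes were chosen by name from the deposited table of YTHDF1 peaks: protein-coding genes whose symbols begin with MRPL or MRPS and a digit (mitochondrial ribosomal proteins), NDUF (complex I), UQCR (complex III), COX and a digit (complex IV) or ATP5 (complex V), and SDHA to SDHD (complex II). These rules found 68 genes with 148 peaks, among 6679 protein-coding genes and 7550 genes of any kind in the table. The mitochondrial ribosome gave 32 of the genes and 69 of the peaks, and the respiratory complexes gave 36 genes and 79 peaks.

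The peaks came from RNA immunoprecipitation sequencing (RIP-seq) in SNU638, an established human gastric cancer cell line. All 4 libraries were made from cells that overexpressed YTHDF1, spent 24 h without serum and then received IFN-γ at 10 ng/ml for another 24 h. The cells are thus a single line with raised levels of the bait protein. IP-YTHDF1, the RNA recovered with the protein through an antibody to FLAG, and Input, the RNA of the lysate, had 2 biological replicates each, and no group without IFN-γ or without YTHDF1 overexpression entered the comparison. The deposited table gives each peak as a 50 bp window with a signal value (a score whose scale is not stated), a p-value and a q-value, and it gives them once for all libraries. No spread between replicates and no depth per library could therefore be given, and no test of a difference between gene groups was run. All comparisons below are counts, medians and ranges within this table.

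Mitochondrial ribosomes translate the few mRNAs made from mitochondrial DNA, which encode membrane subunits of complexes I, III, IV and V. Their own proteins, and most subunits of the complexes, are translated in the cytosol and imported. Complexes I and II pass electrons from NADH and succinate to ubiquinone, complex III passes them on to cytochrome c, complex IV reduces oxygen, and complex V makes ATP from the resulting proton gradient. YTHDF1 is a cytoplasmic reader of N6-methyladenosine (m6A), a mark that is placed mostly within a sequence context whose commonest core is GGAC.

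Sequence could be read for 10 of the 148 windows, those that fell wholly inside the regions around transcription starts given by RefSeq for GRCh38.p14. The following 30-base stretches show the windows with GGAC, whose letters are in capitals, and the central part of the strongest window without it, in COX15. They are written 5′ to 3′ on the RNA strand with T for U. The MRPS35 stretch lies on the plus strand at chr12:27710880-27710909, the UQCRH stretch on the plus strand at chr1:46303761-46303790 and the COX15 stretch on the minus strand at chr10:99732005-99732034.
MRPS35: cagtcgagggcaaGGACtctgcgtgcattc
UQCRH: ccagacatgGGACtggaGGACgagcaaaag
COX15: tttccgccgttgagggccttgaaggggagg

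The MRPS35 window had a signal value of 2.11, the UQCRH window 1.47 and the COX15 window 2.53. GGAC was present on the RNA strand of 2 of the 10 windows (20%) and on the other strand of 2. Of all 885 windows of protein-coding genes that could be read in the same way, 23.6% held GGAC, and 20.3% held it on the other strand. Among the first 50 transcribed bases of 22199 protein-coding RefSeq entries, the share on the RNA strand was 19.8%. The 10 windows lie near transcription starts, 2 of them in the gene before NDUFS3, and no sequence was read for the rest.

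YTHDF1 peaks were listed for a minority of the genes in both groups. Among the genes that RefSeq annotates under the same names in the nucleus, 68 of 182 had a listed window (37.4%, Wilson 95% interval 30.7% to 44.6%), beside 31.8% of all 20043 nuclear protein-coding genes. The share was 41.6% for the mitochondrial ribosome (32 of 77, interval 31.2% to 52.7%) and 34.3% for the respiratory complexes (36 of 105, interval 25.9% to 43.8%). The intervals overlapped each other, included the background, and reflect nothing but the number of genes counted. Cytosolic ribosomal protein genes, which were shorter still (median 5078 bp, beside 7239.5 bp for the listed mitochondrial ribosome genes), had a listed window in 44 of 89 cases (49.4%). The background holds genes that SNU638 may not express, and the level of each mRNA was not analysed here, so a gene with no listed window may be unbound, too weakly expressed or untested.

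The order of the groups depended on how strict the limit was. With the q-value limit set at 0.001, 15 of 77 mitochondrial ribosome genes (19.5%) and 20 of 105 respiratory genes (19.05%) were left, beside 21.2% of all nuclear protein-coding genes. At a Bonferroni limit over all windows counted in the table, 3 mitochondrial ribosome genes (3.90%) and 9 respiratory genes (8.57%) were left, beside 12.6%. Of the 9, NDUFS3, COX16 and ATP5MF-PTCD1 passed this limit only through windows inside another gene, whereas the 3 mitochondrial ribosome genes passed with windows of their own. With a signal value of at least 2 required, the shares were 15.6% and 20%, beside 22.1%. Some of these genes reached 2 only through windows inside another gene. They were NDUFS3, NDUFB2, COX16, NDUFC2-KCTD14 and ATP5MF-PTCD1 of the respiratory complexes, and MRPS6 of the mitochondrial ribosome. As deposited, 37.4% of the genes together were listed, with an interval that included the background of 31.8%. At the stricter limits their shares were below the background (35, 12 and 33 of 182 genes). The q-values were adjusted within each gene, so a q-value limit can admit larger p-values where fewer windows were tested. The median number tested was 15 for the listed genes and 35 over all listed protein-coding genes. The Bonferroni and signal limits are the same for every gene, so these shares do not rest on like thresholds.

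**Figure D1:**
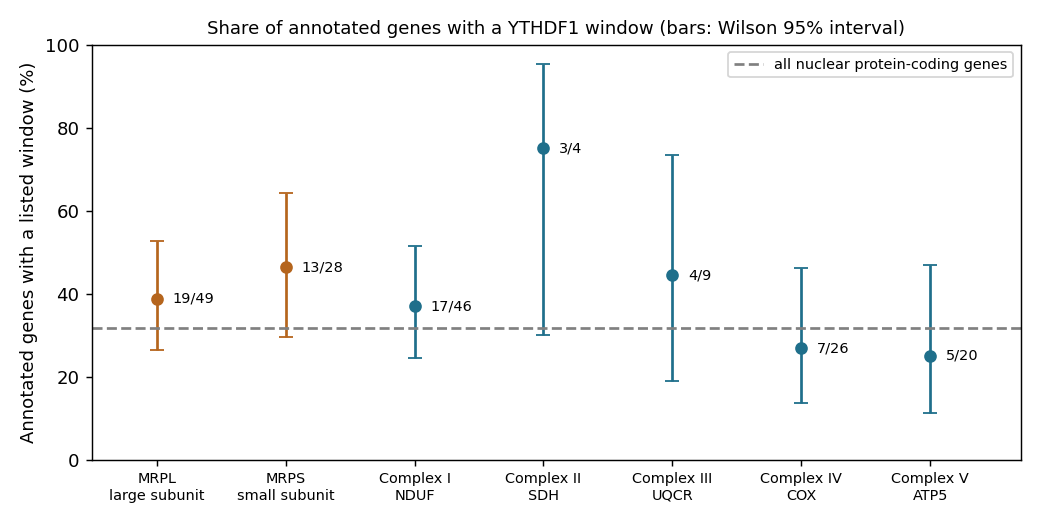
Share of annotated genes with a listed YTHDF1 window, in percent, for the 2 ribosomal subunits (brown) and complexes I to V (blue), with Wilson 95% intervals and counts beside the points; the dashed line is all nuclear protein-coding genes at 31.8%. Complex II (3 of 4) was the highest and complex V (5 of 20) the lowest, and the interval of each class includes the dashed line.

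Within the mitochondrial ribosome, the large subunit (MRPL genes) had 19 of 49 genes listed (38.8%) and the small subunit (MRPS genes) 13 of 28 (46.4%). Complex I had 17 of 46 (37.0%), complex II 3 of 4, complex III 4 of 9 (44.4%), complex IV 7 of 26 (26.9%) and complex V 5 of 20 (25%). Of the assembly factors, which help to build the complexes without staying in them, 6 of 17 were listed, 2 of 8 for complex I and 4 of 9 for complex IV. Of the 17 structural subunits of complex IV, 17.6% were listed (Wilson interval 6.19% to 41.0%), beside 31.8% of all nuclear protein-coding genes. The interval included this background share. The 3 listed subunits were COX4I1, COX7C and COX7A2L. The last is counted here by its name and is known as a factor that joins complexes III and IV.

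Listed genes of both groups had few windows. The median was 1 window for mitochondrial ribosome genes and 1.5 for respiratory genes, beside 3 for all listed protein-coding genes. A single window was listed for 17 of 32 mitochondrial ribosome genes (53.1%) and 18 of 36 respiratory genes (50%), beside 29% of all listed protein-coding genes. These were also genes with few windows to test. The number of windows tested per gene, which the q-values and p-values imply, had a median of 15 in both groups and 35 over all protein-coding genes. As a share of the windows tested, the listed windows had a median of 11.1% for the mitochondrial ribosome, 12.5% for the respiratory complexes and 9.09% for all protein-coding genes. Among genes with 11 to 24 tested windows, the median count was 2 windows both for the 34 genes of these groups and for all 1611 protein-coding genes.

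**Figure D2:**
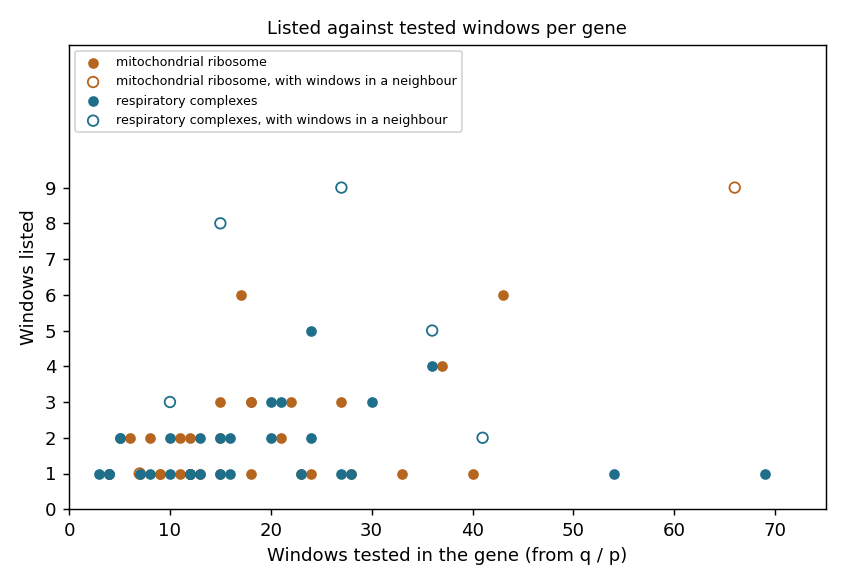
Windows listed against windows tested for each of the 68 genes, with open circles for genes that have windows in the interval of a neighbouring gene. Both genes with 9 listed windows (MRPS6 and ATP5MF-PTCD1) and the gene with 8 (NDUFB2) are open circles, and most filled circles lie at 1 to 3 listed windows.

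MRPS6, ATP5MF-PTCD1 and NDUFB2 had the most listed windows, with most or all of them inside the intervals of neighbouring genes. MRPS25 and MRPL46, with 6 windows each, had only windows of their own. MRPS6, a small-subunit protein, had 9 windows, from position 34094975 on the plus strand of chromosome 21, with signal values from 1.63 to 2.12. All 9 lay in the interval of SLC5A3, a myo-inositol transporter gene that lies within the MRPS6 locus on the same strand, and 8 overlapped windows listed under SLC5A3. The SLC5A3 windows ran from 1.64 to 2.36. The lncRNA gene AP000317.2 held further windows on the same stretch. ATP5MF-PTCD1, a readthrough gene that joins a small complex V subunit to the RNA-processing gene PTCD1, also had 9 windows, from 1.02 to 2.51 on the minus strand of chromosome 7. All of them lay in PTCD1, 8 overlapped PTCD1 windows, and ATP5MF itself had none. Since no gene identifier has more than 9 listed windows, the counts for both genes are read as 9 or more.

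NDUFB2, an accessory subunit of complex I, had 8 windows on the plus strand of chromosome 7. Of these, 7 lay outside its RefSeq interval and inside that of ADCK2, the gene before it, with signal values from 1.47 to 2.09. The remaining window, with 1.41, started 20 bp after the RefSeq start of NDUFB2. NDUFS3, a core subunit of complex I, had 5 windows on the plus strand of chromosome 11, and 4 lay in PTPMT1, a mitochondrial phosphatase gene upstream of it. The strongest of them had a value of 2.40 and overlapped a PTPMT1 window of 2.33. The only NDUFS3 window within the gene itself had 1.19, the lowest of the 5.

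The remaining cases of this kind were COX16 (2 of 2 windows in SYNJ2BP), NDUFC2-KCTD14 (3 of 3 in KCTD14) and MRPS28 (its single window, also inside the readthrough gene TPD52-MRPS28). In all, 35 of the 148 windows lay outside the named gene or inside another protein-coding gene not known to run on the opposite strand, 10 for the mitochondrial ribosome and 25 for the respiratory complexes. The share was 23.6%, beside 10% of all protein-coding windows. With these windows left out, 113 windows in 63 genes remained, 30 mitochondrial ribosome genes (39.0%) and 33 respiratory genes (31.4%), beside 30.2% of all nuclear protein-coding genes.

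**Figure D3:**
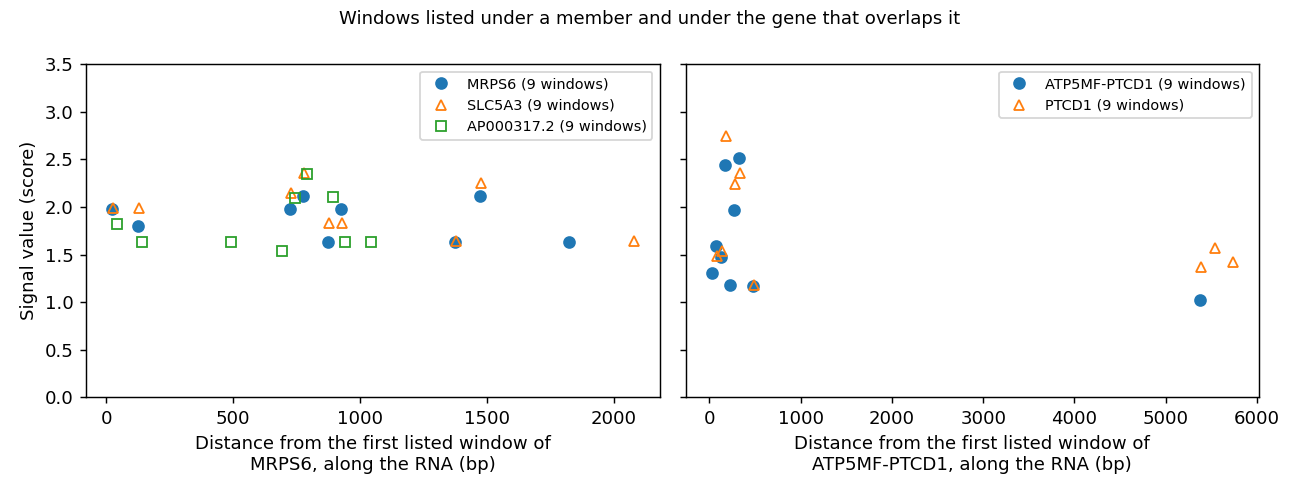
Signal values of windows listed under MRPS6 and the overlapping genes SLC5A3 and AP000317.2 (left), and under ATP5MF-PTCD1 and PTCD1 (right), against the distance in bp from the first listed MRPS6 or ATP5MF-PTCD1 window along the RNA. Each gene has 9 windows, and 8 of the 9 MRPS6 windows and 8 of the 9 ATP5MF-PTCD1 windows overlap a window of SLC5A3 or PTCD1.

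A second kind of sharing was with clone-named genes on the same strand. Windows of 7 genes overlapped only windows of clone-named genes on the same strand, 16 windows in all, and these were COX15, MRPL46, MRPS28, NDUFA13, NDUFA9, SDHA and SDHD. Such windows were listed under both names. COX15 had 2.10, 2.53 and 2.25, and the overlapping AL133353.2 had 2.09, 2.52 and 2.25. NDUFA9 and AC005833.1 both had 2.08, whereas MRPS28 had 1.96 beside 1.88 for AC036214.3. Some clone-named genes reached beyond the member. AC013489.1 also had windows from position 88527652, outside MRPL46, with values up to 2.89. Except in MRPS28, the overlapping windows still counted as the genes' own, because only RefSeq intervals were used for that count. Which identifier the RNA came from cannot be told apart by position. With overlaps of named and clone-named genes counted together, 39 of the 148 windows (26.4%) overlapped a same-strand window of another gene, beside 10% of all protein-coding windows. They lay in 13 of the 68 genes, beside 839 of 6679 protein-coding genes, and MRPS6 and ATP5MF-PTCD1 held 8 each. No member window overlapped a listed window on the opposite strand.

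By signal value, the median of the mitochondrial ribosome lay below that of the respiratory complexes. Both lay below that of listed protein-coding genes in general, although complex II (2.27, 3 genes) and complex V (2.30, 5 genes) did not. With the genes' own windows alone, which leaves out ATP5MF-PTCD1, the complex V median was 2.08 (4 genes), below the 2.22 of all protein-coding genes counted in the same way. The strongest window of each gene had a median signal value of 1.92 for the mitochondrial ribosome (25th to 75th percentile 1.60 to 2.15) and 2.09 for the respiratory complexes (1.815 to 2.43). Over all listed protein-coding genes the median was 2.23 (1.94 to 2.56). A value of 2 or more was reached by 12 of 32 mitochondrial ribosome genes (37.5%) and 21 of 36 respiratory genes (58.3%), beside 69.5% of all listed protein-coding genes. Among them, MRPS6 and the respiratory genes NDUFS3, NDUFB2, COX16, NDUFC2-KCTD14 and ATP5MF-PTCD1 reached 2 only through windows that were not their own. The order-statistic 95% intervals of the medians, 1.64 to 2.03 and 1.86 to 2.40, overlapped. The gap between the groups was nearly gone without the windows that overlapped another gene's window on the same strand, where the medians were 1.91 and 1.925, and it was small for the genes' own windows alone, at 1.915 and 1.97. Cytosolic ribosomal protein genes had a median of 1.835 (44 genes). Lower medians were also seen among genes with 11 to 24 tested windows. There they were 1.855 for the mitochondrial ribosome, 1.925 for the respiratory complexes and 2.13 for all listed protein-coding genes. Only 6 of the 148 windows were among the strongest 10% of protein-coding windows, at 2.55 or more, and these were in MRPS25 (2 windows), ATP5MC3, NDUFAF6, COX11 and NDUFA13. A high signal value did not always go with a low q-value. An ATP5F1B window of 1.47 had a q-value of 5.7e-08, and the NDUFA9 window of 2.08 had 0.0214. Whether the level of each mRNA or the limit for listing bears on these medians was not tested.

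**Figure D4:**
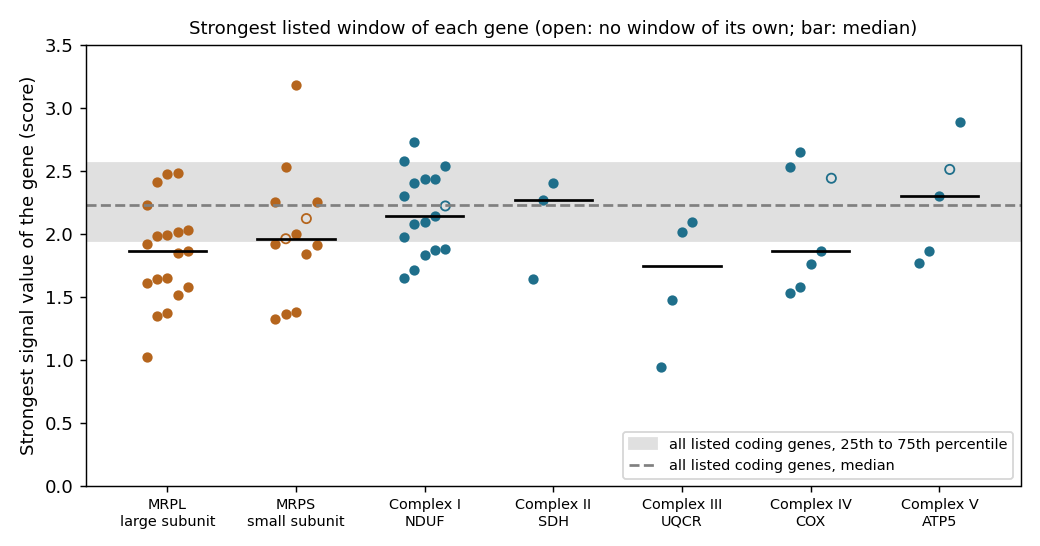
Signal value of the strongest listed window of each gene (score), by class, with black bars at the class medians, open circles for genes without a window of their own, and the grey band and dashed line for all listed protein-coding genes (25th to 75th percentile and median of 2.23). MRPS25 at 3.18 is the highest point and UQCRFS1 at 0.94 the lowest, and 6 of the 7 medians lie at or below 2.27, with complex V at 2.30.

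MRPS25 (ENSG00000131368), a protein of the small subunit, had the strongest window of all 68 genes. Its 6 windows on the minus strand of chromosome 3 formed 3 regions. The strongest region began at position 15052411, with signal values of 3.18 and 2.39, and the q-value of its first window was listed as 0 in the deposited table. At the 5′ end of the gene, 3 adjacent windows had 1.78, 1.96 and 2.68, and a lone window between the regions had 2.01. The value of 3.18 exceeded the strongest window of 94.7% of listed protein-coding genes.

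MRPS35 followed in the small subunit, with 2.11 at its 5′ end (the window shown above) and 2.53 within the gene. MRPS2 and MRPS26 each reached 2.25. In MRPS2 this was the window closest to the 3′ end, 39 bp from it, beside 1.64 and 1.53 nearer the start, whereas in MRPS26 it was the window that began 1 bp from the gene start, beside 1.41 and 1.06 further on. The lowest of the small subunit was MRPS27, whose 4 windows had 1.19 to 1.32. The other genes of the small subunit ran from 1.36 (MRPS34) to 2.12 (MRPS6).

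In the large subunit no window reached the 2 strongest of MRPS25, 3.18 and 2.68. MRPL23 had a single window of 2.48, MRPL9 had 2.47 and 1.75, and MRPL35 had a single window of 2.41. MRPL46 had the most windows, 6 with values from 0.98 to 1.65, and 4 of these lay side by side within 200 bp of its start. MRPL38 had 3, with 2.01 and 1.04 near its 3′ end and 1.03 near its start. The weakest was MRPL36, at 1.02, and only 0.284% of listed protein-coding genes had a strongest window below that value. A single window was listed for 12 of the 19 genes.

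The strongest complex I windows were in NDUFAF6 (2.73), an assembly factor, NDUFA13 (2.58), an accessory subunit also known as GRIM-19, and NDUFS1 (2.54), the largest nuclear-encoded core subunit. Each had 1 window. The NDUFA13 window started 12 bp after the start of the gene and overlapped a window of 1.90 under the clone-named AC011448.1. The other listed assembly factor, NDUFAF1, had windows of 2.43 and 1.29. The core subunits NDUFS7 and NDUFS8, which carry iron-sulfur clusters, had single windows of 1.88 and 1.87. NDUFV1, which binds the flavin, had 5 windows from 1.04 to 1.65 and so the lowest strongest value of complex I as listed. By windows of the gene itself, NDUFS3 (1.19) and NDUFB2 (1.41) were lower.

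Complex II, succinate dehydrogenase, is made of 4 subunits, and SDHB had no listed window. SDHD and SDHC, which anchor it in the membrane, had 1 window each, of 2.40 and 2.27. SDHD overlapped a window of 3.04 under the clone-named AP002884.2. SDHA, the flavoprotein, had 4 windows of 1.64, 1.55, 1.31 and 1.55 in order along the gene, and all overlapped windows of the clone-named AC021087.5.

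SDHA also has near-identical pseudogene copies, which were listed too. The last 3 SDHA windows were 1000 bp and then 50 bp apart, and the 3 windows of SDHAP2 had the same spacings, with higher signal values of 2.49, 1.90 and 2.89. SDHAP1 had a single window of 2.5. Reads from such copies can be hard to assign, and how reads that match several places were treated is not given in the sources used here, so the SDHA values are uncertain. Processed pseudogenes of other members also appeared, COX7CP1 with 3.08 beside 1.58 and 1.43 for COX7C, and UQCRFS1P1 with 1.79 beside 0.94 and 0.88 for UQCRFS1. COX6A1P2 had 1.44, and COX6A1 itself was not listed.

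Complex III had 4 listed genes. UQCRC2 had adjacent windows of 2.09 and 2.07 at its start, and UQCRC1, the other core protein, had a single window of 2.01. UQCRH, the hinge protein, had a single window of 1.47, shown above. UQCRFS1, the Rieske iron-sulfur protein, had 2 adjacent windows of 0.94 and 0.88, the lowest of all 68 genes.

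In complex IV, the assembly factors had higher values than the structural subunits. COX11, which delivers copper, had 3 adjacent windows of 2.10, 2.65 and 1.92. COX15, an enzyme of heme A synthesis, reached 2.53, COX16 reached 2.44 with both windows in SYNJ2BP, and COX19 had a single window of 1.86. The structural subunit COX4I1 had 1.76, COX7C had 1.58 and 1.43, and COX7A2L had 1.53. With NDUFAF1 and NDUFAF6, the 6 listed assembly factors had a median of 2.485 and a range from 1.86 to 2.73. The median over all listed protein-coding genes was 2.23. Assembly factors and carriers with other names, described below, had a median of 2.025 (18 listed genes).

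In complex V, ATP5MC3, which encodes the c subunit of the membrane ring, had the strongest window at 2.89, with 1.93 next to it. Neither ATP5MC1 nor ATP5MC2, which encode the same mature protein, was listed. ATP5F1B, the catalytic beta subunit, had 3 adjacent windows of 2.30, 1.47 and 1.29. The alpha subunit ATP5F1A had 1.46 and 1.86, and the delta subunit ATP5F1D had 1.55 and 1.77 close to its 3′ end.

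Windows near the ends of genes were counted within 200 bp of the RefSeq gene start and end. Of the 135 windows inside their gene, 28 lay near the 5′ end (20.7%), beside 15.1% of all protein-coding windows. The mitochondrial ribosome had 17 of 69 (24.6%) and the respiratory complexes 11 of 66 (16.7%), whereas cytosolic ribosomal protein genes had 5 of 87 (5.75%). Examples are MRPS26, NDUFA13, MRPL51, MRPS18A and NDUFS4, whose windows began within 50 bp of the start.

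Near the 3′ end lay 10 of the 135 windows (7.41%), beside 0.981% of all protein-coding windows. They were 6 windows of the mitochondrial ribosome (8.70%) and 4 of the respiratory complexes (6.06%), in MRPL33, MRPL38, MRPL55, MRPS2, MRPS34, NDUFS8, SDHC and ATP5F1D. All of these genes but SDHC were at most 10 kb long, and a short gene has more of its length near an end. Cytosolic ribosomal protein genes had 5 of 87 windows near the 3′ end (5.75%). Among genes of at most 10 kb, the share near the 3′ end was 15.3% (9 of 59 windows), beside 3.82% of all protein-coding windows and 7.81% of those of cytosolic ribosomal protein genes in such genes. In the same short genes the share near the 5′ end was 25% for the mitochondrial ribosome and 13.04% for the respiratory complexes (3 of 23 windows), beside 17.9%. Counted by gene, 21 of 67 genes (31.3%) had a window near the 5′ end. The share was 33.8% for all listed protein-coding genes with a window inside their interval. It was 37.5% (12 of 32) for the mitochondrial ribosome and 25.7% (9 of 35) for the respiratory complexes. This count sets genes with few listed windows beside genes with more. Among genes with a single window, it lay near the 5′ end in 29.4% of mitochondrial ribosome genes (5 of 17) and 22.2% of respiratory genes (4 of 18), beside 21.2%. Neighbouring windows of a gene share reads, and positions in exons, introns and untranslated regions were not analysed here.

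**Figure D5:**
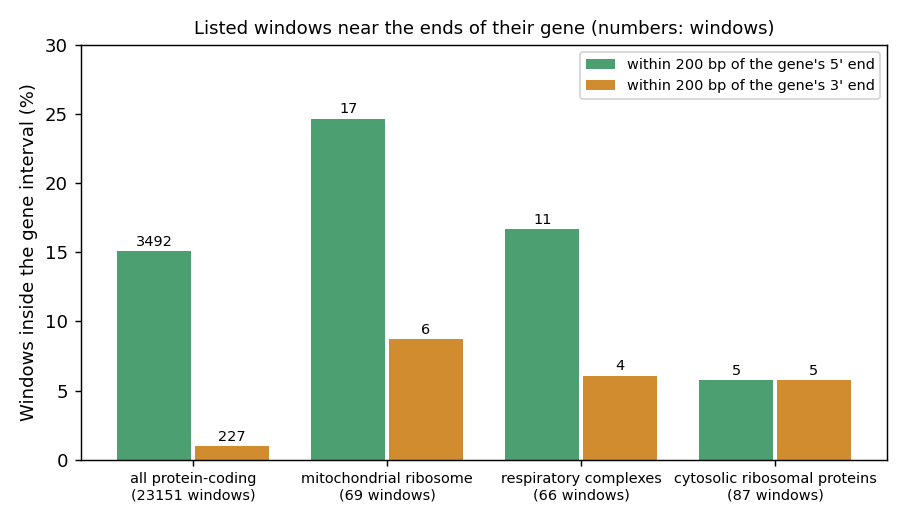
Share of listed windows, in percent of those inside the RefSeq gene interval, that lie within 200 bp of the gene's 5′ end (green) or 3′ end (orange), with the number of windows above each bar. The mitochondrial ribosome is highest near the 5′ end at 24.6%, and both groups are above the 0.981% of all protein-coding windows near the 3′ end.

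Other genes of the same pathways were counted from lists chosen with earlier results of these data known. Their shares are therefore descriptive and not independent of the data. Of 14 genes chosen for mitochondrial transcription and DNA copying, 12 were listed (85.7%, beside 31.8% of all nuclear protein-coding genes). Their median strongest value was 2.39, beside 2.23. The 12 include NRF1 and GABPA, which are transcription factors of nuclear genes. POLG, the mitochondrial DNA polymerase, had 9 windows, the most any gene has in the table, with values up to 3.32, and 4 of them counted as its own. None of the 3 windows of POLG2 counted as its own. NRF1, a transcription factor of respiratory genes, had 2 windows up to 2.83, and TFAM had a single window of 2.09. Of 20 mitochondrial translation factors, 9 were listed (45%), with a median of 2.03, from 1.12 in TUFM, an elongation factor, to 3.07 in RMND1. Of 33 other assembly factors and carriers, 18 were listed (54.5%), with a median of 2.025 and a range from 1.49 in CYC1 to 2.63 in COA7. Of 5 ribosomal proteins that do not carry an MRP name, GADD45GIP1 had 9 windows up to 2.26 and AURKAIP1 had 1 of 1.28. None of the 15 genes on mitochondrial DNA was listed, and the table held 0 windows on the mitochondrial chromosome. Whether windows there were tested is not shown.

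Genes without a listed window made up the larger part of both groups. In the large ribosomal subunit they were MRPL1, MRPL2, MRPL4, MRPL10 to MRPL14, MRPL18 to MRPL22, MRPL24, MRPL30, MRPL32, MRPL34, MRPL37, MRPL39, MRPL41, MRPL42, MRPL45, MRPL47 to MRPL49, MRPL52 to MRPL54, MRPL57 and MRPL58. In the small subunit they were MRPS5, MRPS9 to MRPS12, MRPS14, MRPS15, MRPS17, MRPS18B, MRPS18C, MRPS21, MRPS22, MRPS24, MRPS31 and MRPS33. In complex I they were NDUFA1 to NDUFA3, NDUFA5, NDUFA7, NDUFA8, NDUFA11, NDUFA12, NDUFAF2 to NDUFAF5, NDUFAF7, NDUFAF8, NDUFV2, NDUFS5, NDUFS6, NDUFC1, NDUFC2, NDUFAB1 and all NDUFB genes but NDUFB2 and NDUFB8. In complex III they were UQCRB, UQCRQ, UQCR10, UQCR11 and UQCRHL. In complex IV they were COX4I2, COX5A, COX5B, COX6A1, COX6A2, COX6B1, COX6B2, COX6C, COX7A1, COX7A2, COX7B, COX7B2, COX8A, COX8C and the assembly factors COX10, COX14, COX17, COX18 and COX20. In complex V they were ATP5F1C, ATP5F1E, ATP5MC1, ATP5MC2, ATP5ME, ATP5MF, ATP5MG, ATP5MGL, ATP5MJ, ATP5MK, ATP5PB, ATP5PD, ATP5PF, ATP5PO and the inhibitor ATP5IF1.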

How the data were processed

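RIP-seq libraries of IP-YTHDF1 and Input (2 each) were aligned to GRCh38 with STAR 2.7.3a according to the submitters' processing notes; the peak caller and how reads that match several places were treated are not given in the sources used here. The deposited signal value was used as a score of unstated scale, and the deposited p-value and q-value were used as given. The table has 26820 rows, of which 1 exact repeat was dropped. Starts were changed to count from 1. No column belongs to a single library (0 left unused), so the 2 groups could not be compared anew and the precision set by depth is unknown. The q-values were found to be adjusted within each gene: q divided by p was whole within 0.5% in 99.5% of 1913 protein-coding genes with a single window and a p-value above 1e-14. Windows tested were computed from this quotient (tested on simulated data) and are a lower bound in genes with 9 listed windows.

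Symbols were matched to RefSeq GRCh38.p14 by symbol or unambiguous synonym (6370 of 6674), and the gene intervals served to place windows. A window counted as a gene's own if it overlapped that gene's interval and no other protein-coding interval not known to be on the opposite strand. Named genes were, per class, the 3 strongest, the 2 with the most windows and the weakest, all of complex II, all listed assembly factors, genes with 9 windows, and members without a window; others were named after their values were seen, as were the 200 bp and 10 kb limits and the range of 11 to 24 tested windows. The members and lists were chosen with earlier results of these data known. Values of 1 gene are not reported here. GGAC was searched on both strands. Alternatives were a q-value of 0.001, a Bonferroni limit, a signal value of 2, joined windows, structural subunits alone and windows without same-strand overlap, and, added after the data were seen, own windows alone and genes below 9 windows. Values were computed in Python 3.11.15 (NumPy 2.4.6, pandas 2.3.3, SciPy 1.17.1) and drawn with matplotlib 3.10.9.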

Additional observations from a re-analysis of the deposited data

How the results depend on the processing

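No paired analysis was possible because no deposited value belongs to a single library. Leaving out replicates, other count models, transcript regions, the DRACH motif and widened windows were not run for the same reason or for lack of a genome. The share of genes listed fell under stricter limits, which follows from the limits: for the mitochondrial ribosome from 41.6% to 19.5% (q-value of at most 0.001), 3.90% (Bonferroni) and 15.6% (signal value of at least 2), and for the respiratory complexes from 34.3% to 19.05%, 8.57% and 20%. The median strongest value rose, as weaker genes dropped out, to 2.25 (Bonferroni) and 2.25 (signal value of at least 2) for the mitochondrial ribosome and to 2.42 (q-value of at most 0.001) and 2.53 (Bonferroni) for the respiratory complexes. The respiratory median stayed above that of the mitochondrial ribosome under all 7 alternatives that give a median, by as little as 1.925 against 1.91 without windows overlapping those of another gene. The other alternatives, including windows of the genes' own and no genes with 9 windows, left each share and median within the 95% interval of its value as deposited. Within 500 bp in place of 200 bp, 27.4% of windows lay near the 5′ end (24.8% of all protein-coding windows) and 13.3% near the 3′ end (2.05%, and 18.4% of windows of cytosolic ribosomal protein genes).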
